A study of Mus musculus with 3 samples.

Results

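Elastic fibre genes are described here across the cell types of the P14 mouse lung. The 10 genes were chosen by symbol alone (*Eln*, *Fbn1*, *Fbn2*, *Mfap4*, *Fbln5*, *Ltbp2*, *Ltbp4*, *Lox*, *Loxl1*, and *Loxl2*), out of 28625 gene symbols in the count tables, and all 10 were detected. The study made scRNA-Seq libraries from whole-lung digests of 3 wild-type C57BL/6 mice (numbers 2, 3, and 4), which breathed room air (RA) after birth, with P1 and P14 as the first and last days, and were taken on the last. The mice carried no transgene or treatment, they form 1 group, and the mouse is the replicate. Among 7642 cells kept, 21 cell types with at least 10 cells in at least 2 mice are compared, and each type name stands for cells that are like that type by their marker genes. The 10 genes were left out of the clustering that defined the types. In whole-lung digests the yield of a cell type can differ from its number in the tissue.

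Elastic fibres let the airspaces, arteries, and airways recoil after stretch. Their core is elastin, which is secreted as soluble tropoelastin, laid down on a scaffold of fibrillin microfibrils with the help of adaptor proteins, and made insoluble by lysyl oxidases that cross-link it. In the mouse, much of the lung's elastin is deposited while alveolar septa form after birth, and myofibroblasts at the septal tips and vascular smooth muscle are its best-known sources.

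*Eln* (ENSMUSG00000029675) lies on the minus strand of GRCm38 chromosome 5, at 134702593 to 134747323. *Fbn1* (ENSMUSG00000027204) is at chr2:125300594-125507993, *Fbln5* (ENSMUSG00000021186) at chr12:101746565-101819055, *Ltbp2* (ENSMUSG00000002020) at chr12:84783212-84876532, *Ltbp4* (ENSMUSG00000040488) at chr7:27305136-27337692, and *Loxl1* (ENSMUSG00000032334) at chr9:58287738-58313186, all on the minus strand. *Loxl2* (ENSMUSG00000034205) is at chr14:69609068-69695834 and *Mfap4* (ENSMUSG00000042436) at chr11:61485431-61488900, both on the plus strand. All are protein coding, and GENCODE M21 places another gene on the opposite strand of *Eln*, *Fbn1*, *Fbn2*, *Lox*, *Loxl2*, *Ltbp2*, and *Mfap4*. UMIs were counted near the 3' ends of transcripts, so levels are compared between cells and not between genes.

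RefSeq promoter sequences were at hand for 4 of the 10 genes. Those of *Fbln5* and *Ltbp4* are shown because these 2 genes had their highest level in arterial EC (below). Each line gives the 250 bases before the most upstream listed start site on GRCm38.p6, 5′ to 3′ on the gene's minus strand, at chr12:101819120-101819369 and chr7:27337613-27337862. Capitals mark matches, on either strand, to CCAAT (the letters of the CCAAT box), to GGGCGG (the letters of the GC box), or to CAGGAAG (a core that ETS factors bind).
Fbln5: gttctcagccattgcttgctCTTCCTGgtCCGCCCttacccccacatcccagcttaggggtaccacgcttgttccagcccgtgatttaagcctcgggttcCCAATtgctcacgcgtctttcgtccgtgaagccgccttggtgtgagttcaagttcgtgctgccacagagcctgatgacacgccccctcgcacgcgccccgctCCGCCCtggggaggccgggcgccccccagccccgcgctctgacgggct
Ltbp4: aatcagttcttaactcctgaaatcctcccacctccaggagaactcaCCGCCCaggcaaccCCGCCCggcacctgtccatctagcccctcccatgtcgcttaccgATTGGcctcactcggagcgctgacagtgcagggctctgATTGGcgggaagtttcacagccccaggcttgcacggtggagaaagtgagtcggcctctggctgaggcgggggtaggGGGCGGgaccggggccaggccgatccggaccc
Both windows hold the CCAAT and GC box letters, and the *Fbln5* window also holds the ETS core. No marked match overlaps another. Of 32851 promoter windows of the same length, 33.8% hold the first, 32.7% hold the GC box letters, and 10.8% hold the ETS core. The TATA box TATAAA (12.4% of windows), the E-box CACGTG (found in 6.0%), the RBPJ core GTGGGAA (found in 5.4%), and the TEAD core GGAATG (found in 12.6%) were searched as well, on either strand, and are not in these 2 windows. Which start site the cells used was not tested.

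The 3 libraries held 3034, 3135, and 3475 cells with 23744510, 22476491, and 25192427 UMIs. After filtering, 2386, 2601, and 2655 cells were kept, with medians of 7119, 4853, and 6453 UMIs per cell. The library from mouse 3 was the shallowest and held more immune cells (1431 of its cells, against 696 and 894). Libraries shared 2 to 5 cell barcodes. B cells, which should lack these genes, carried all 10 at low levels (from 0.761 CPM for *Fbn2* to 80.7 CPM for *Eln*), so levels of this size are read as background. Whether this background came from free RNA was not tested. The p-values measure the spread between 3 mice of 1 group.

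*Eln* took 0.895% of all UMIs of the kept cells (595711 UMIs) and ranked 9 among all genes, and the 10 genes together took 1.13%. Its level, as UMIs of the gene scaled to a fixed total of a cell type's UMIs (CPM, on which 45219 CPM is 4.52% of the UMIs), was highest in myofibroblasts of the *Aspn* type, with 44842, 47733, and 43083 CPM in mice 2, 3, and 4 (mean 45219 ± 2348 SD, n = 3). Smooth muscle cells held 44578, 38854, and 35825 CPM (39752 ± 4445). The ranges of these 2 types overlapped.

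Next came *Pdgfra* fibroblasts marked by *Agt* and *Stc1*, with 29434, 32734, and 26043 CPM of *Eln* (29404 ± 3346). Venous EC followed with 17486, 24862, and 21106 CPM (21152 ± 3688). Each of these types lay apart from the next in every mouse. Fibroblasts of the *Col14a1* type, which stand for adventitial fibroblasts, held 14901 ± 2171 CPM, the alveolar *Col13a1* type held 10284 ± 1456, and arterial EC held 9060 ± 2259, and the last 2 overlapped. Capillary EC were far below, with 839 ± 70.4 CPM in the *Aplnr* type and 509 ± 162 in the *Car4* type.

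In single cells, the median *Aspn* myofibroblast carried 456 *Eln* UMIs, or 4.65% of its RNA, and the median smooth muscle cell carried 471, with up to 2684 in 1 cell. All 449 *Aspn* cells, all 352 *Agt* cells, and all 104 venous EC had an *Eln* UMI. The median venous EC carried 147.5 UMIs and the median *Aplnr* capillary EC carried 5. At 1000 UMIs per cell, 99.9% ± 0.0513 of venous EC, 48.7% ± 0.675 of *Aplnr* capillary EC, and 8.30% ± 1.52 of B cells had an *Eln* UMI (102, 437, and 1776 cells deep enough). Without thinning these shares were 100%, 92.5%, and 28.1%, at median depths of 9017.5, 7933, and 3959 UMIs.

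Pericytes, the mural cells of capillaries, stood apart from the other mural cells. They held 355, 123, and 194 CPM of *Eln* (224 ± 119), and their median cell had 1 *Eln* UMI. This range overlapped those of neutrophils and AT2 cells, and 61 of the 183 UMIs came from 1 pericyte. Single cells also decided some of the other low values, since 193 of the 336 *Eln* UMIs of neutrophils came from 1 cell, as did 307 of 418 in AT1 cells.

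**Figure D1:**
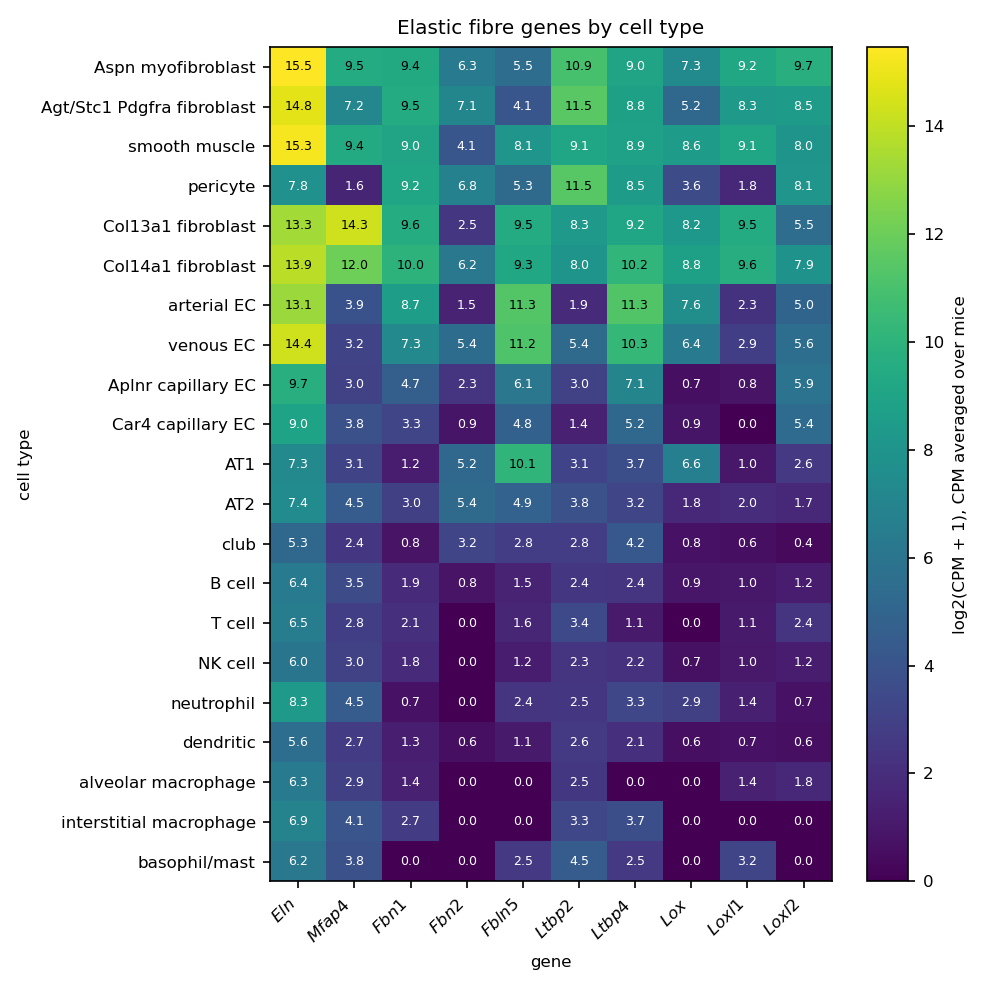
Level of each gene (columns) in the 21 cell types (rows), as the mean CPM of the mice on a log scale. *Eln* is high in 5 mesenchymal types and in arterial and venous EC, *Mfap4* in *Col13a1* and *Col14a1* fibroblasts, *Fbln5* in arterial EC, venous EC, and AT1 cells, and immune types are low for all 10 genes.

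Stromal cells held 90.4% ± 2.21 of the *Eln* UMIs, 96.2% ± 2.68 of those of *Mfap4*, 96.8% ± 0.423 of *Ltbp2*, 97.4% ± 0.447 of *Loxl1*, 90.4% ± 0.370 of *Loxl2*, 89.2% ± 0.932 of *Fbn1*, and 82.5% ± 2.92 of *Lox*. The other 3 genes were divided. EC held 49.1% ± 4.78 of the *Fbln5* UMIs, against 25.7% ± 4.25 in stromal and 23.8% ± 9.53 in epithelial cells. *Ltbp4* was split into 56.5% ± 0.828 stromal and 40.1% ± 0.823 endothelial, and epithelial cells held 35.2% ± 4.27 of the *Fbn2* UMIs. These shares also move with how many cells of each class the digest gave (1494 stromal, 959 endothelial, 1260 epithelial, and 3021 immune cells).

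Per UMI, 8 of the 10 genes were higher in stromal cells than in EC, where 31% of all 14211 genes tested were called higher, and 2 were lower, where 24.7% were. *Loxl1* held 508, 540, and 512 CPM in stromal cells and 8.45, 12.1, and 14.7 CPM in EC (log2 fold 5.57 ± 0.16 SE, adjusted p = 8.34e-13). *Fbln5* held 228, 249, and 186 CPM in stromal cells and 711, 928, and 692 CPM in EC (−1.70 ± 0.19, adjusted p = 2.03e-06). The 2 classes did not overlap for either gene. *Ltbp4* was lower by a small step (−0.27 ± 0.11, adjusted p = 0.0466), and this call was lost in 7 of the alternatives, among them leaving out any 1 mouse (adjusted p 0.0597 to 0.237). The EC class mixes types that differ in both genes. *Fbln5* held 2550 and 2374 CPM in arterial and venous EC, but 67.8 and 26.8 in *Aplnr* and *Car4* capillary EC. These capillary levels lay below *Col13a1* (736) and *Col14a1* fibroblasts (626) and smooth muscle (268). *Ltbp4* held 132 and 35.4 CPM in the capillary types, below every stromal type. The class folds of both genes thus depend on how many EC of each type the digest gave. For the other 7 genes the log2 folds were 2.68 for *Eln*, 2.62 for *Fbn1*, 2.96 for *Fbn2*, 2.38 for *Lox*, 2.86 for *Loxl2*, 5.29 for *Ltbp2*, and 5.53 for *Mfap4*. The EC class included 144 cells given no EC type, among them a shallow group led by *Mfap4* and the stromal markers *Col1a2* and *Col1a1*. The *Loxl1*, *Ltbp2*, and *Mfap4* UMIs of the EC class (114, 408, and 740) came mostly from the 144 cells. Arterial, venous, *Aplnr* capillary, and *Car4* capillary EC held 6, 8, 4, and 0 of the *Loxl1* UMIs. They held 4, 51, 36, and 2 of *Ltbp2*, and 21, 10, 31, and 15 of *Mfap4*. The EC levels and folds of these genes depend on the untyped cells.

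Against epithelial cells, 9 of 10 genes were higher in stromal cells (35.9% of all genes were called higher and 31.3% lower). The exception was *Fbln5* (0.10 ± 0.19, adjusted p = 0.658), which passed without TMM scaling (0.48, adjusted p = 0.0275) and stood at −0.23 without mouse 3. Both classes mix unlike types for *Fbln5*, so its fold depends on the yield of each. It held 1131 CPM in AT1 cells (166 cells) and 28.1 CPM in AT2 cells (1046 cells). Stromal types ranged from 16.7 CPM in *Agt* to 736 CPM in *Col13a1* fibroblasts. Among the called genes, *Fbn2* had the smallest fold (0.69 ± 0.09, adjusted p = 8.86e-06). Against immune cells, all 10 were higher (38.9% of all genes were called higher and 37.4% lower), by log2 folds from 6.74 for *Ltbp4* to 8.65 for *Loxl1*. Immune cells held mean levels from 0.471 CPM for *Fbn2* to 96.0 CPM for *Eln*, the size read as background in B cells. They had 7 UMIs of *Fbn2*, 16 of *Loxl1*, 17 of *Lox*, 19 of *Loxl2*, and 24 of *Fbln5*. These folds therefore set stromal levels against background, and the count of 10 carries no weight.

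**Figure D2:**
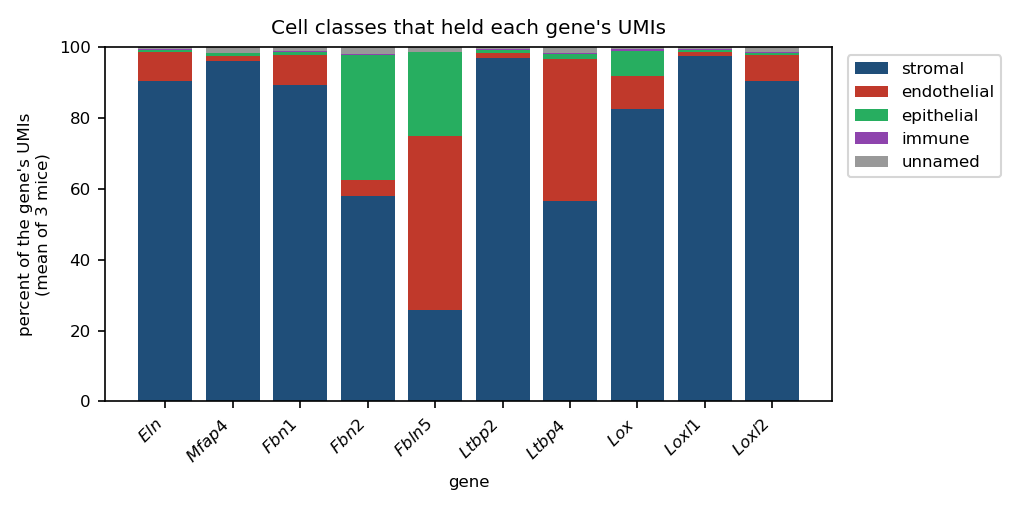
Percent of each gene's UMIs (y axis, mean of 3 mice) that lay in stromal, endothelial, epithelial, immune, and unnamed cells. Stromal cells held over 80% for 7 genes, and EC held 49.1% for *Fbln5* and 40.1% for *Ltbp4*.

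*Fbn1*, the main fibrillin, was the most even of the 10 genes across the 6 stromal types. *Col14a1* fibroblasts held 1143, 993, and 931 CPM (1022 ± 109), above every other type in all mice. The other 5 stromal types held means of 527 to 776 CPM with overlapping neighbours, and arterial EC held 410 ± 60.2 CPM, far above the *Aplnr* capillary type (24.1 ± 4.38).

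*Fbn2*, the fibrillin best known from fetal tissue, was sparse (2266 UMIs in all). *Agt* fibroblasts held 134, 141, and 140 CPM (138 ± 4.01), pericytes held 117, 136, and 78.5 CPM (111 ± 29.5), and *Aspn* myofibroblasts held 78.3, 76.9, and 76.0 CPM (77.1 ± 1.19). The 2 highest types overlapped, and the *Aspn* values began just under the lowest pericyte value. Venous EC (42.3 ± 5.57), AT2 cells (39.9 ± 4.06), and AT1 cells (36.1 ± 6.31) carried it in all mice, against 0.761 ± 0.184 CPM in B cells.

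In *Col14a1* fibroblasts, 1 library decided the *Fbn2* level: mouse 3 held 152 CPM and mice 2 and 4 held 29.1 and 33.9. The same cluster included 15 cells with cartilage markers (9 of them from mouse 3), which were set apart as chondrocytes and held 483 CPM of *Fbn2* (119 UMIs), and 3 cells lay near the cut between the 2 types. With the 15 cells kept in the *Col14a1* type, a choice made after the data were seen, the log2 fold of *Fbn2* against the other stromal types was 1.98, against 1.16 without them. Whether cartilage-like cells were left among the 85 was not tested.

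*Mfap4*, which codes for a microfibril-associated glycoprotein, marked the *Col13a1* fibroblasts. They held 23228, 19986, and 18816 CPM (20676 ± 2286), and their median cell carried 193 UMIs. *Col14a1* fibroblasts came next with 4158, 4124, and 4267 CPM (4183 ± 74.7). *Aspn* myofibroblasts (719 ± 30.7) and smooth muscle (697 ± 120) overlapped, *Agt* fibroblasts held 144 ± 13.9, and pericytes had 2 UMIs in 91 cells.

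*Ltbp2*, which codes for a microfibril protein of the family named for latent TGF-β binding, had another order. *Agt* fibroblasts held 2902, 3088, and 2785 CPM (2925 ± 153) and pericytes held 2543, 2931, and 2917 CPM (2797 ± 220). These 2 overlapped, and *Aspn* myofibroblasts were below both with 1856, 2063, and 1986 CPM (1969 ± 105). Pericytes were at the top for *Ltbp2* and the lowest stromal type for *Eln*.

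In smooth muscle, *Ltbp2* held 824, 268, and 610 CPM. Mouse 3 was the lowest of the 3 here, and also in *Col13a1* (371, 174, and 403) and *Col14a1* fibroblasts (352, 146, and 278). In venous EC, 45 of its 51 UMIs were in 1 cell.

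The 3 lysyl oxidases were spread differently over the stroma. *Lox* was highest in *Col14a1* fibroblasts (428, 507, and 386 CPM; mean 440 ± 61.3) and smooth muscle (365, 365, and 394; 375 ± 17.0), which overlapped. *Col13a1* fibroblasts held 303 ± 16.5 CPM, *Aspn* myofibroblasts 161 ± 22.2, and *Agt* fibroblasts 34.6 ± 3.25.

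Outside the stroma, *Lox* was found in arterial EC (120, 267, and 212 CPM), AT1 cells (114, 82.0, and 102 CPM), and venous EC (54.4, 90.0, and 97.8 CPM). Of 136 AT1 cells with at least 1000 UMIs, 85 had a *Lox* UMI. B cells held 0.907 ± 0.821 CPM.

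*Loxl1*, a paralog needed for the upkeep of elastic fibres, had a mean above 10 CPM in 5 of the 21 types. These were *Col14a1* fibroblasts (797 ± 118), *Col13a1* fibroblasts (717 ± 20.2), *Aspn* myofibroblasts (604 ± 45.8), smooth muscle (544 ± 10.8), and *Agt* fibroblasts (320 ± 13.7). The first 2 overlapped, as did the next 2. Pericytes had 2 *Loxl1* UMIs in 91 cells.

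*Loxl2*, another paralog, was highest in the myofibroblasts. *Aspn* cells held 744, 863, and 826 CPM (811 ± 61.0), and *Agt* fibroblasts held 329, 376, and 391 CPM (366 ± 32.6). Pericytes (269 ± 28.2), smooth muscle (256 ± 52.7), and *Col14a1* fibroblasts (235 ± 57.6) overlapped, and *Col13a1* fibroblasts held 45.7 ± 6.92.

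**Figure D3:**
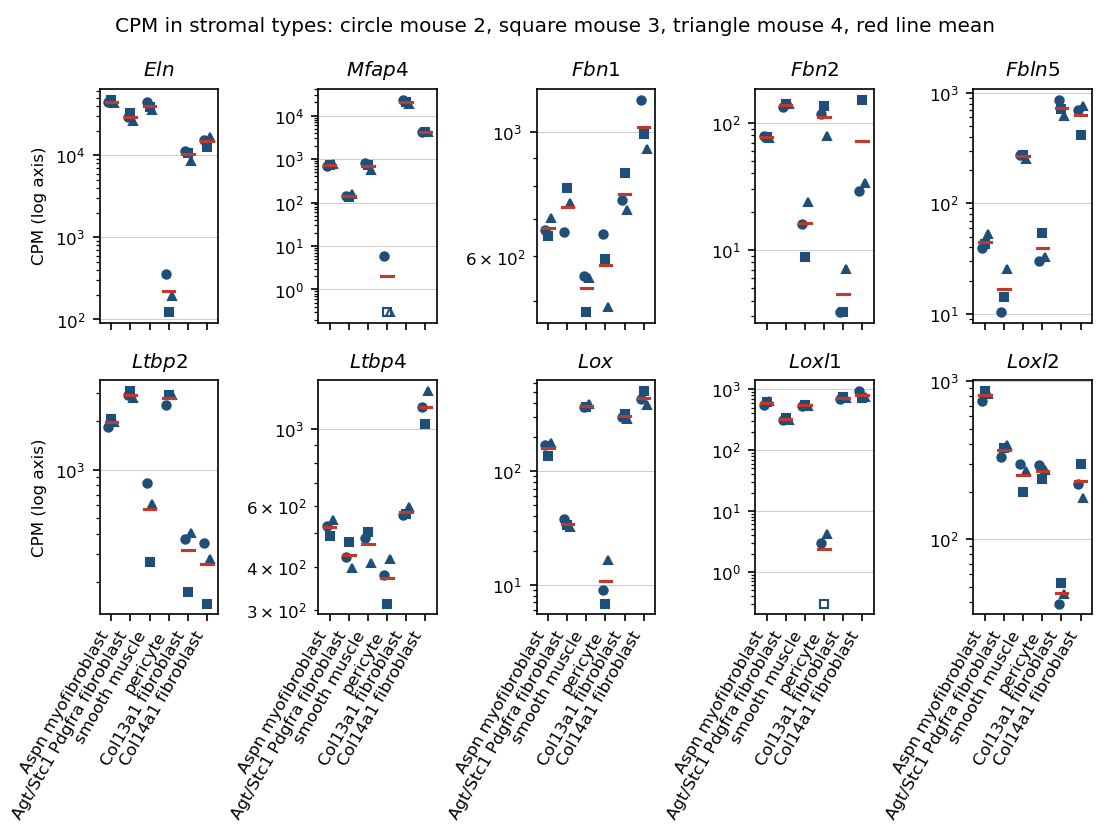
Level of each gene (log axis, CPM) in each of the 6 stromal types, 1 point per mouse. Pericytes lie below the other 5 types for *Eln*, *Mfap4*, *Lox*, and *Loxl1*, but among the highest for *Ltbp2* and *Fbn2*.

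Each stromal type was compared with the mean log level of the other 5, across 10611 genes. Because pericytes held so little *Eln*, *Mfap4*, *Lox*, and *Loxl1*, they pull that mean down for these genes, so calls that change without them, and folds of these 4 genes that move by over 1.5 times, are given in both forms.

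In *Aspn* myofibroblasts, 7 of 10 genes were higher (14.3% of all genes were) and 1 was lower (9.54% were). *Eln* (log2 fold 2.36 ± 0.11, adjusted p = 1.35e-15), *Loxl2* (1.99 ± 0.10, adjusted p = 3.12e-15), and *Ltbp2* (1.2 ± 0.19, adjusted p = 1.59e-05) were higher, and *Fbln5* was lower (−1.79 ± 0.20, adjusted p = 4.73e-08). *Fbn2* was higher (0.93 ± 0.23), though not with DESeq2 (adjusted p = 0.0587). *Loxl1* (1.56), *Mfap4* (0.53), and *Lox* (0.45) were called higher, but with pericytes left out they stood at 0.02, −1.33, and −0.41, and *Eln* stood at 1.06 (adjusted p = 9.18e-08). Leaving out mouse 2 or 4 ended the call for *Lox* (adjusted p 0.137 and 0.0727), and leaving out mouse 4 (0.122) or using DESeq2 (0.0858) did so for *Mfap4*. Log-normalized clustering ended both (edgeR adjusted p 0.209 for *Lox* and 0.0605 for *Mfap4*). *Fbn1* (−0.13) and *Ltbp4* (−0.13) did not pass, but *Ltbp4* was called lower with pericytes left out (−0.29, adjusted p = 0.0198) and with a stricter filter on cells (0.0190). With that filter *Fbn1* was called lower too (−0.23, edgeR adjusted p = 0.0447).

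In *Agt* fibroblasts, 4 genes were higher (13.2% of all genes) and 4 were lower (10.7%). *Fbn2* (1.88 ± 0.21, adjusted p = 4.83e-08), *Ltbp2* (1.82 ± 0.18, adjusted p = 7.42e-09), *Eln* (1.55 ± 0.12, adjusted p = 2.01e-11), and *Loxl2* (0.55 ± 0.11, adjusted p = 0.000237) were higher, the last not with log-normalized clustering (0.190). *Fbln5* (−3.50), *Mfap4* (−2.32), *Lox* (−2.30), and *Ltbp4* (−0.53) were lower, and *Fbn1* (−0.05) did not pass. The *Mfap4* call was lost without mouse 2 (−1.38, adjusted p = 1). With pericytes left out, *Eln* was no longer called (0.21, adjusted p = 0.227), and *Loxl1*, not called before (0.40, adjusted p = 0.0586), stood at −1.19 (adjusted p = 5.80e-11). *Lox* and *Mfap4* then stood at −3.27 and −4.30. Without TMM scaling, and with pericytes kept, *Loxl1* was called higher (0.52, edgeR adjusted p = 0.00471).

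Set directly against *Agt* fibroblasts, *Aspn* myofibroblasts had 6 genes higher (8.67% of all genes) and 1 lower (5.03%). *Mfap4* (2.37 ± 0.13, adjusted p = 2.40e-13), *Lox* (2.29 ± 0.14, adjusted p = 3.02e-12), *Fbln5* (1.43 ± 0.28), *Loxl2* (1.2 ± 0.13), *Loxl1* (0.97 ± 0.11), and *Eln* (0.67 ± 0.16, adjusted p = 0.00443) were higher. *Fbn2* was lower (−0.79 ± 0.22, adjusted p = 0.0147). The calls for *Eln* and *Fbn2* were lost with DESeq2 (adjusted p 0.132 and 0.431) and without mouse 4 (0.0566 and 0.121), and that for *Fbn2* also without mouse 2 (0.0521). *Fbn1* (−0.07) and *Ltbp2* (−0.52) did not pass, but without mouse 3 *Ltbp2* (adjusted p = 0.0115) and *Ltbp4* (0.0133) did. *Ltbp4* (0.33) did not pass without the mouse as a block (adjusted p = 0.0579) but did with it (0.0318). Only 5 of 11 alternatives left *Ltbp4* uncalled, and it also passed with DESeq2 (0.01) and with log-normalized clustering (0.0157).

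In smooth muscle, 5 genes were higher (19.3% of all genes) and 3 lower (13.1%). *Eln* (2.25 ± 0.11, adjusted p = 1.78e-15), *Lox* (2.00 ± 0.10, adjusted p = 1.70e-15), and *Fbln5* (1.39 ± 0.15, adjusted p = 1.32e-08) were higher, and *Fbn2* (−1.62), *Ltbp2* (−0.84), and *Fbn1* (−0.45) were lower. Most *Fbln5* UMIs of smooth muscle lay in a group of 57 cells (below). *Loxl1* (1.49) and *Mfap4* (0.58) were called higher but stood at −0.046 and −1.28 without pericytes, where *Ltbp2* was no longer called (−0.51, adjusted p = 0.0801). *Eln* and *Lox* remained higher without pericytes, at 0.94 and 1.21. *Fbn2* was not called with doublets left out (adjusted p = 0.0975). *Loxl2* (0.11) and *Ltbp4* (−0.22) did not pass, but without mouse 3 both did (adjusted p 0.0191 and 0.0160), and *Ltbp4* passed with the mouse as a block (0.0680 without and 0.0446 with it). *Ltbp4* was also called lower with pericytes left out (−0.38, adjusted p = 0.00182) and with the stricter filter (0.00214). Only 6 of 14 alternatives left *Ltbp4* uncalled in smooth muscle, and it also passed with DESeq2 (0.0394).

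In pericytes, 2 genes were higher (14.9% of all genes) and 7 lower (14.2%). *Ltbp2* (1.78 ± 0.19, adjusted p = 1.55e-08) and *Fbn2* (1.5 ± 0.35, adjusted p = 0.00144) were higher. *Eln* was lower (−6.73 ± 0.21, adjusted p = 5.17e-20). *Fbln5* (−2.19), *Ltbp4* (−0.73), and *Fbn1* (−0.41) were lower as well, and *Loxl2* (0.09) did not pass. For the 3 genes with few UMIs in pericytes, the pooled level of the other stromal types over that of pericytes is given with its 95% exact counting interval, which covers counting error only: 1271 for *Mfap4* (352 to 10497), 197 for *Loxl1* (54.6 to 1629), and 20.3 for *Lox* (10.3 to 47.1). *Mfap4*, *Loxl1*, and *Lox* had enough UMIs to test only through the other stromal types, so their place among the 7 lower carries no weight. The calls for *Fbn2* and *Fbn1* were lost without mouse 2 and mouse 4 (adjusted p 0.0534 and 0.0989).

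In *Col13a1* fibroblasts, 4 genes were higher (19% of all genes) and 3 lower (13.2%). *Mfap4* (6.46 ± 0.09, adjusted p = 6.38e-28), *Fbln5* (3.14 ± 0.14), *Loxl1* (1.97 ± 0.11), and *Lox* (1.64 ± 0.11) were higher, and *Fbn2* (−3.85), *Loxl2* (−2.84), and *Ltbp2* (−1.87) were lower. *Eln* was not called (−0.09 ± 0.13) until pericytes were left out (−1.49, adjusted p = 2.08e-09), where *Mfap4*, *Lox*, and *Loxl1* stood at 4.84, 0.84, and 0.45, all still called. *Fbn1* (0.23) did not pass in the fit reported (adjusted p = 0.0530), and only 6 of 14 alternatives left it so. It passed, among others, with the mouse as a block (0.0324), without mouse 2 (0.0417), with DESeq2 (0.025), and with doublets left out (0.00846). *Ltbp4* (0.15) did not pass.

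In *Col14a1* fibroblasts, 8 genes were higher (17.2% of all genes) and 1 lower (9.12%). *Mfap4* (3.79 ± 0.10, adjusted p = 1.14e-21), *Fbln5* (2.95 ± 0.15), *Lox* (2.40 ± 0.11), *Loxl1* (2.27 ± 0.11), *Ltbp4* (1.46 ± 0.08), and *Fbn1* (0.81 ± 0.09) were higher, and *Ltbp2* was lower (−2.10 ± 0.26). *Eln* was called higher (0.66) but stood at −0.72 (adjusted p = 0.000173) without pericytes, where *Mfap4*, *Lox*, and *Loxl1* stood at 2.07, 1.63, and 0.76, all still called. *Fbn2* was called higher (1.16) but stood at −0.21 (adjusted p = 0.740) without mouse 3. *Loxl2* (0.09) did not pass.

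The smooth muscle cells fell into 4 groups, which are described without a test. In 106 cells with *Ltbp2* itself, *Sept4*, and *Col8a1* as leading genes, *Ltbp2* held 2225, 1556, and 2017 CPM, and in 105 cells led by *S100a9* and *S100a8* (neutrophil genes) and *Ednrb* it held 43.7, 22.6, and 17.9 CPM. The first group also held more *Eln* (61796 ± 8986 CPM against 25253 ± 3838) and *Loxl2* (586 ± 39.1 against 165 ± 32.3). It had less *Acta2* (3995 ± 359 against 13738 ± 1505 CPM) and *Myh11* (1497 ± 132 against 4666 ± 226), the contractile genes that mark smooth muscle.

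The *Ltbp2* group carried *Aspn* (1162 ± 133 CPM; 3426 in *Aspn* myofibroblasts), but no *Pdgfra* UMI and 1 *Hhip* UMI, both myofibroblast markers. Which cells this group stands for is not settled, and smooth muscle as a whole includes it. In the other 3 groups the mean levels were 25253 to 43400 CPM of *Eln* and 28.0 to 110 CPM of *Ltbp2*, so the values and tests of smooth muscle for these genes depend on it. It gave 46, 17, and 43 smooth muscle cells in mice 2, 3, and 4, and mouse 3 was the one with the lowest *Ltbp2* in smooth muscle as a whole. Another group of 57 cells led by *Ncam1*, *Fbln5*, and *Sfrp2* held 708 ± 45.4 CPM of *Fbln5*, 557 ± 22.1 of *Lox*, and 1202 of *Mfap4*. The last 24 cells were led by *Dcn*, *Dpt*, and *Lum* and also by the immune genes *Cd74*, *Ighm*, and *Cd79b*.

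*Fbln5*, which tethers tropoelastin to microfibrils and cells, was highest in arterial and venous EC. Arterial EC held 2397, 2575, and 2677 CPM (2550 ± 142) and venous EC held 2408, 2559, and 2156 CPM (2374 ± 204). The 2 overlapped, and both lay above AT1 cells and all stromal types. *Ltbp4*, which binds latent TGF-β and fibulins, held 2346, 2597, and 2532 CPM in arterial EC (2491 ± 130), about the level of *Col14a1* fibroblasts in venous EC (1284 ± 65.5, against 1160 ± 125), and 132 ± 21.1 CPM in *Aplnr* capillary EC.

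Of the 7 genes with enough UMIs to test among 7711, 5 were higher in arterial than in capillary EC (15.7% of all genes) and none was lower (14.3%). *Eln* (log2 fold 3.88 ± 0.13, adjusted p = 2.30e-18), *Fbn1* (4.89 ± 0.17, adjusted p = 2.31e-18), *Fbln5* (5.99 ± 0.17, adjusted p = 6.09e-20), and *Ltbp4* (5.27 ± 0.12, adjusted p = 1.21e-21) were higher. *Lox* had 300 UMIs in arterial EC against 4 in both capillary types, a ratio of 277 (95% exact counting interval 107 to 1025). It had enough UMIs to test only through arterial and venous EC, so its place among the 5 carries no weight. *Loxl2* (−0.63 ± 0.32, adjusted p = 0.161) did not pass. *Fbn2* had 3 UMIs in arterial EC, all in mouse 2, and 22 and 1 in the capillary types, and its fold ranged from −4.03 to 1.62 with 1 mouse left out, so no difference was detectable at this depth.

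**Figure D4:**
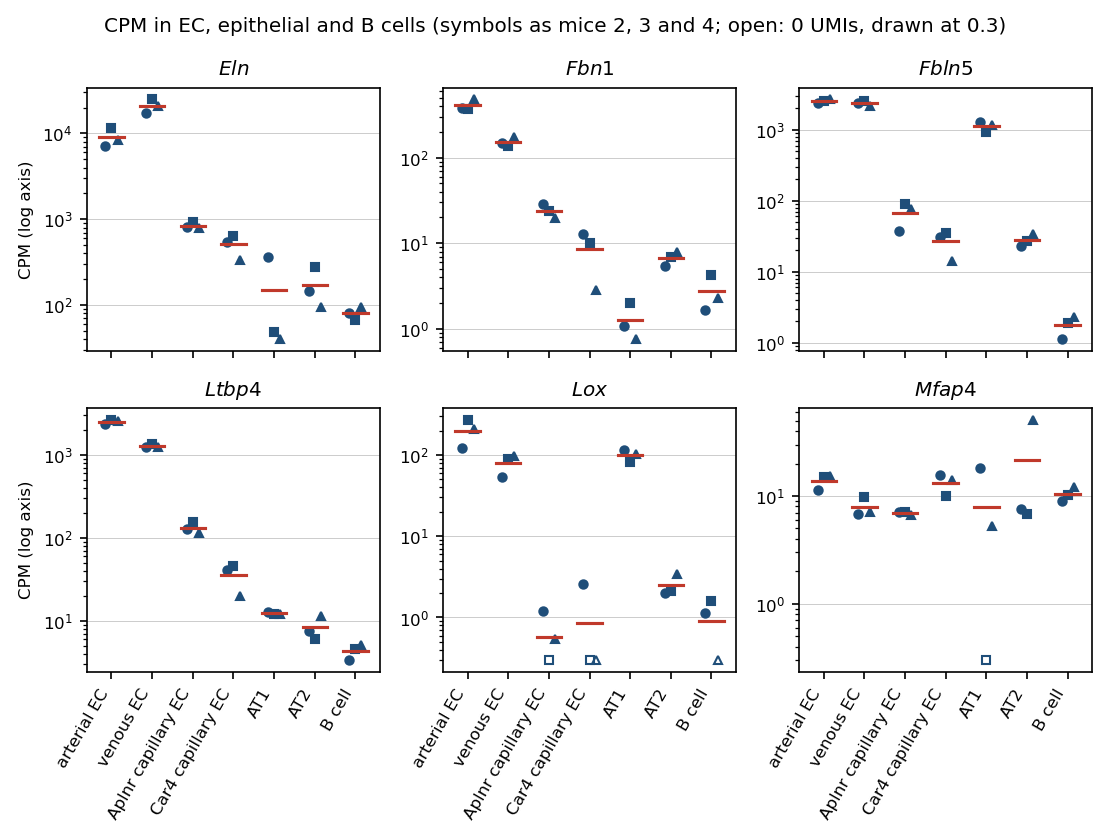
Level of each gene (log axis, CPM) in arterial, venous, *Aplnr* capillary, and *Car4* capillary EC, 1 point per mouse. Arterial and venous EC lie above both capillary types for *Eln*, *Fbn1*, *Fbln5*, *Ltbp4*, and *Lox*, and *Eln* is higher in venous than in arterial EC in each mouse.

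Markers of stromal cells were measured in the same EC. The summed level of 7 stromal markers (*Col1a1*, *Col1a2*, *Col3a1*, *Col6a1*, *Col5a1*, *Col6a2*, and *Pdgfrb*) was 65.8 to 248 CPM in arterial EC, 145 to 930 in venous EC, and 37.6 to 43.9 in B cells, against 21749 to 22401 in *Aspn* myofibroblasts. *Pdgfra* (0 to 4.77 CPM) and *Aspn* (0 to 4.77 CPM) were near 0 in venous EC, and *Mfap4* stood at 7.89 CPM there and at 10.4 in B cells. The 8 *Aspn* myofibroblast markers, *Pdgfra* and *Aspn* among them, summed to 161 to 253 CPM in venous EC. They summed to 22.6 to 51.5 CPM in arterial EC and 24.5 to 31.4 in B cells. The 8 smooth muscle markers summed to 26.8 to 126 CPM in venous EC, 10.7 to 32.4 in arterial EC, and 16.2 to 21.9 in B cells. The 7 endothelial markers summed to 6607 to 6858 CPM in venous EC and 7658 to 7864 in arterial EC. With doublets left out, arterial EC held 9155 ± 2181 CPM of *Eln* (155 cells), and none of the 104 venous EC was marked as a doublet. The part of stromal RNA in these values was not tested.

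Arterial EC also fell into 2 groups, given without a test. In 59 cells led by *Cytl1*, *Sfrp1*, and *Mgp*, *Eln* held 15884 ± 2928 CPM, *Fbln5* 3459 ± 307, *Ltbp4* 3221 ± 203, and *Lox* 376 ± 91.2. In 98 cells led by *Atp13a3*, *Cxcl12*, and *Gja5* the values were 2755 ± 230, 1733 ± 434, 1858 ± 128, and 28.1 ± 12.5. *Lox* was itself among the leading genes of the first group, and the AT2 genes *Sftpc* and *Sftpb* were among those of the second, where *Sftpc* reached 2358 ± 3652 CPM. The stromal markers summed to 294 CPM in the first group and 44.0 in the second. *Fbn1* was alike in size in both (440 ± 64.2 and 377 ± 57.4), and *Gja5*, an arterial gap junction gene, held 763 ± 108 and 811 ± 305 CPM.

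**Figure D5:**
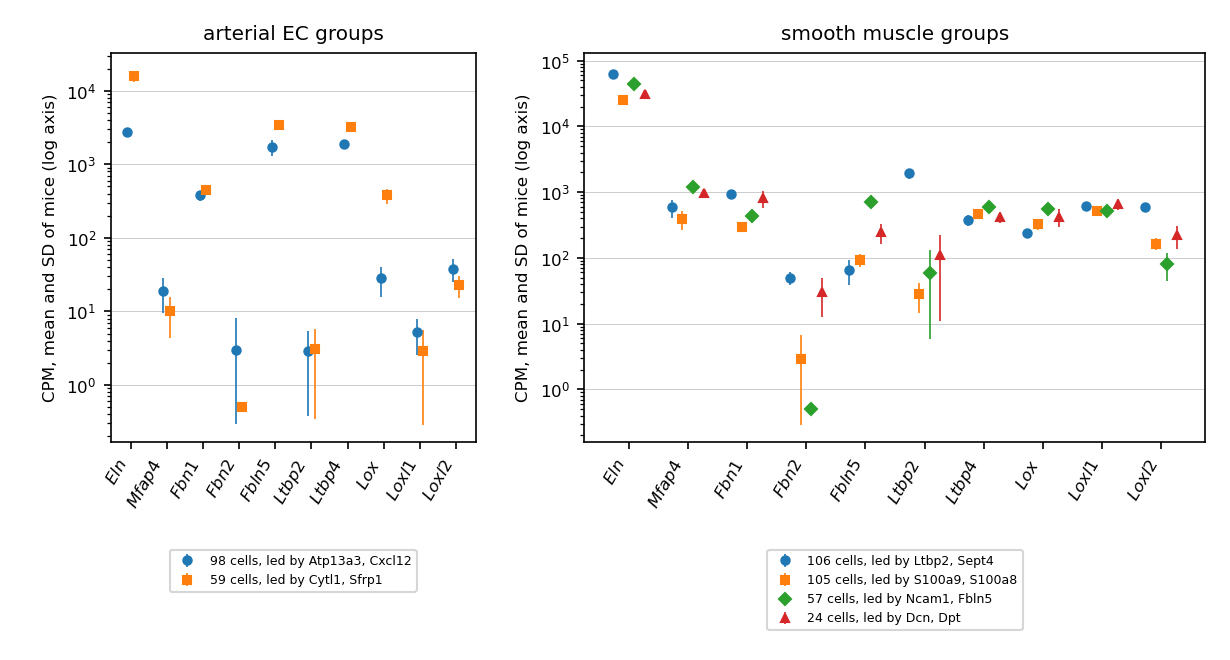
Level of each gene (log axis, CPM, mean and SD of 3 mice) in the 2 groups of arterial EC and the 4 groups of smooth muscle cells; a mean of 0 is drawn at 0.5. *Eln* and *Lox* separate the arterial groups, and *Ltbp2*, *Fbn2*, and *Fbln5* the smooth muscle groups.

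Of 157 arterial EC, 147 had a UMI of both *Fbln5* and *Ltbp4*, as had 100 of 104 venous EC. AT1 cells, the flat cells that line the airspace, came next in *Fbln5* level (1285, 930, and 1178 CPM; 1131 ± 182), but only 12.3 ± 0.481 CPM of *Ltbp4*. *Fbln5* was found in 115 of 136 AT1 cells with at least 1000 UMIs and in 7 of 30 shallower ones. AT2 cells held 28.1 ± 5.69 CPM and B cells 1.77 ± 0.600.

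A further 36 genes in 5 lists were counted. Where 1 stromal type is set against the others, pericytes stayed in the mean of the others. The lists were not counted again without pericytes, so folds of genes low in pericytes may be raised by them. Of 15 microfibril and assembly genes, *Col14a1* fibroblasts had 10 higher and 1 lower than the other stromal types, and *Aspn* myofibroblasts had 9 higher and 2 lower. Of all genes, 17.2% were higher and 9.12% lower in the first, and 14.3% and 9.54% in the second. In *Col14a1* fibroblasts the called genes included *Fbln2* (log2 fold 5.94 ± 0.29) and *Mfap5* (5.10 ± 0.16), which code for a fibulin and a microfibril glycoprotein. *Mfap5* held 1176, 1298, and 1145 CPM there and no UMI in pericytes, which pull down the mean it is compared with. In smooth muscle, 5 were higher and 5 lower (19.3% and 13.1% of all genes), led by *Thsd4* (315, 397, and 357 CPM; 6.19 ± 0.21), which codes for a protein that promotes fibrillin assembly.

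*Fbln2* was the 1 microfibril gene of the 15 that was lower in stromal cells than in EC (−4.95 ± 0.29, adjusted p = 9.89e-10), and the other 14 were higher, as were 31% of all genes. It held 1946, 1717, and 1994 CPM in venous EC and 860, 1333, and 1208 CPM in arterial EC. In arterial against capillary EC, 4 of 8 microfibril genes were higher, with *Bgn* (3.84 ± 0.18) and *Fbln2* (2.83 ± 0.15) among them, and 3 were lower (15.7% and 14.3% of all genes).

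Of the 5 latent TGF-β genes, 3 were higher in *Aspn* myofibroblasts than in the other stromal types and none was lower (14.3% and 9.54% of all genes). *Tgfb3* was among them (411, 383, and 365 CPM; 1.76 ± 0.09, adjusted p = 5.24e-15). Smooth muscle had 2 higher and 2 lower (19.3% and 13.1% of all genes), and *Ltbp1* led there (3.87 ± 0.19). Of 4 cross-linking and processing genes tested, pericytes had 3 higher (14.9% of all genes), with *Atp7a*, the copper pump that loads lysyl oxidases, at 3.57 ± 0.13 and *Loxl3* at 2.22 ± 0.19.

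Of 7 elastin-breakdown genes tested, 3 were higher in stromal than in immune cells and 4 were lower (38.9% and 37.4% of all genes). The 3 of 7 higher lie near the share of all genes. *Mmp2* (log2 fold 7.56 ± 0.24) was among the higher, and *Ctss* (−7.09 ± 0.30) and *Mmp12* (−9.52 ± 0.94) were among the lower. *Mmp12*, the macrophage elastase, held 2086, 35.8, and 467 CPM in alveolar macrophages, a wide spread between mice. *Ctsk* was higher in *Col14a1* fibroblasts than in the other stromal types (3.68 ± 0.13). Over all 5 lists, 17 of 30 genes tested were higher and 4 lower in *Aspn* myofibroblasts (14.3% and 9.54% of all genes). In *Col14a1* fibroblasts 18 were higher and 3 lower (17.2% and 9.12%), and in *Agt* fibroblasts 7 and 8 (13.2% and 10.7%). Smooth muscle had 7 higher and 13 lower (19.3% and 13.1%), pericytes 8 and 12 (14.9% and 14.2%), and *Col13a1* fibroblasts 8 and 14 (19% and 13.2%). The 7 of 30 higher in smooth muscle lie near the share of all genes.

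Across the 21 types, Pearson's r of log2(CPM + 1) was computed against 8677 other genes, as a description, since types share libraries and depth. The nearest genes were *Mgp* for *Eln* (0.940), *Bgn* for *Fbn1* (0.980), *Plekhh2* for *Fbn2* (0.914), *Prkcdbp* for *Fbln5* (0.879), and *Cyr61* for *Lox* (0.922). For *Loxl1* it was *Epha3* (0.968), for *Loxl2* *Jam3* (0.954), for *Ltbp2* *Tbx5* (0.973), for *Ltbp4* *Fstl1* (0.950), and for *Mfap4* *Ogn* (0.959). Among the 10 genes themselves, *Fbn1* and *Ltbp4* were the most alike (0.915) and *Fbln5* and *Ltbp2* the least (0.315).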

How the data were processed

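Single-cell suspensions of whole lung from 3 mice of 1 group were sequenced as 10x v3 libraries. The deposited values are unnormalized counts of UMIs, which the authors obtained with Cell Ranger 3.0.2 for each library. The submitters' processing notes name build mm10, and positions are from GRCm38. The annotation used for counting is not given in the sources used here.

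A cell was kept if it had 200 genes or more and no more than 20% of UMIs from mitochondria (7642 of 9644 cells). In R 4.3.3, Seurat 5.3.0 and SCTransform (0.4.2) gave clusters of the merged cells from 3000 variable genes and 30 components, at a resolution of 0.8. EC were clustered again on 20 components. The 10 genes and 36 pathway genes were left out of the variable genes. Clusters were named from lists of marker genes by their mean log2 fold, with thresholds set after the clusters had been seen, so names may differ from the study's own. Of the marker genes, 3 symbols (*Gucy1a1*, *Gucy1b1*, *Cnmd*) had no match. In 7 clusters no name was given (908 cells, mostly shallow). Doublets were scored with Scrublet in scanpy 1.11.5 and marked at 0.8% per 1000 cells (74, 79, and 97 cells), because an automatic threshold marked under 0.5% of cells; they were kept in the main analysis.

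Counts were summed per mouse and class or type (at least 10 cells) and tested with edgeR 4.0.16 (TMM, filterByExpr, quasi-likelihood test, Benjamini-Hochberg adjustment over all genes tested, threshold 0.05), in 3 fits: 12 sums for the 4 classes, 18 for the 6 stromal types, and 12 for the EC types. Sums held 18 to 181 cells in the type fits. In simulated counts with 200 changed genes, 100% were recovered at a log2 fold of 2 in the stromal against endothelial comparison. The simulation gave all genes the same spread and changed only genes with a mean of at least 10 UMIs per sum. It therefore cannot show how well changes in sparser genes, or in genes with a wider spread between mice, are recovered. Sums of the same mouse come from the same animal. The correlation of their deviations ranged from −0.107 to 0.135 (class fit, 18 pairs), from −0.0536 to 0.286 (stromal fit, 45 pairs), and from −0.0312 to 0.176 (EC fit, 18 pairs). The fit with the mouse as a block is given beside a result where it changes the call. Alternatives were the normalization, DESeq2 1.42.0, the filters, each mouse left out, doublets, the clustering settings, and 2 chosen after the data were seen. No library was a copy of another (chi-square over degrees of freedom 8.68 to 36.0 between pairs).

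The 10 genes, the lists, and the tests were chosen with earlier results of these data known. All 10 genes were named in every comparison; pathway genes were named from those with the largest folds among the called ones, at most 4 per list. Each of the 10 genes has 3 similar genes by rule, of which the nearest is named.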

Additional observations from a re-analysis of the deposited data

How the results depend on the processing

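Of the values for single genes under all alternatives, 1270 kept both sign and call, 33 lost the call, 35 gained it, 19 changed sign with no call in either fit, and 13 changed sign with a call in at least 1. These 13 sign changes came from comparisons of 1 stromal type with the mean of the others. With pericytes left out of that mean, a choice made after seeing the data, *Lox* and *Mfap4* in *Aspn* myofibroblasts stood at −0.41 and −1.33, *Loxl1* in *Agt* fibroblasts at −1.19, *Loxl1* and *Mfap4* in smooth muscle at −0.046 and −1.28, and *Eln* in *Col14a1* fibroblasts at −0.72. With the stricter filter on cells (500 genes, 10% mitochondrial UMIs), where no pericyte type was left and pericytes have no value, the same 6 values were −0.42, −1.32, −1.24, −0.056, −1.26, and −0.67. *Fbn2* in *Col14a1* fibroblasts ranged from −0.21 (without mouse 3) to 1.55 (without mouse 2) with 1 mouse left out, and reached 1.98 with the cartilage cells kept. Keeping the cartilage cells in the *Col14a1* type, also chosen after seeing the data, changed the sign of no value that was called. *Loxl2* in *Col14a1* fibroblasts, not called in either fit, went from 0.09 to −0.11. *Fbn1* in *Col13a1* fibroblasts gained a call (edgeR adjusted p = 0.0435).

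The type with the highest level was the same for 6 of the 10 genes at resolution 0.4 and for 6 at 1.2, where the *Aspn* and *Agt* types were not both found, so their comparisons have no value. *Eln* was then highest in smooth muscle (resolution 0.4) or in the *Agt* type (1.2). At both resolutions *Loxl2* was highest in the *Agt* type, and *Fbn2* and *Ltbp2* were highest in pericytes. For *Fbln5* the highest type was venous EC with log-normalized clustering and with cells thinned to 1000 UMIs. The stricter filter on cells moved the arterial EC levels of *Fbln5* and *Ltbp4* to 3534 and 3191 CPM, from 2550 and 2491. For *Loxl1* it was *Col13a1* fibroblasts with the cartilage cells kept in the *Col14a1* type. Numbers of the 10 genes called in each comparison ranged from 5 (*Aspn* against *Agt*, 7 in the fit reported) to 10. Leaving out 1 mouse moved them to between 5 and 9 for *Aspn* against *Agt*, 6 and 8 for *Aspn* myofibroblasts, and 8 and 10 for smooth muscle. Of all genes, 920 were called higher and 534 lower in *Aspn* than in *Agt* cells, but only 968 in either direction without mouse 2 and 885 without mouse 4. In *Aspn* myofibroblasts against the other stromal types 1519 were higher and 1012 lower, but 1674 in either direction without mouse 4. With the mouse as a replicate block, 3 calls were gained (*Ltbp4* in smooth muscle at −0.22, *Fbn1* in *Col13a1* fibroblasts, and *Ltbp4* in *Aspn* against *Agt*), and no other call changed. Depth limits *Fbn2* and *Lox*, which had 2266 and 4565 UMIs, and *Loxl1*, *Ltbp2*, and *Mfap4* were too sparse to test between EC types.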

Other observations

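Lymphatic EC were too few to compare (23 cells, of which only mouse 2 gave at least 10). Pooled over mice they held 887 CPM of *Ltbp4* (334 UMIs, in 21 of 23 cells), 815 CPM of *Eln* (307 UMIs), 183 CPM of *Fbn1*, and 178 CPM of *Fbln5*, and no UMI of *Lox*, *Ltbp2*, or *Mfap4*. The 15 cells with cartilage markers held 1647 CPM of *Eln* and 162 CPM of *Loxl1*, and 8 of them had a *Fbn2* UMI. Among clusters without a name, 164 shallow cells led by the neuronal genes *Uchl1*, *Pcsk1n*, and *Sncg* held 5007 CPM of *Eln* (1735 UMIs). A group of 84 cells of the EC class with a median of 927 UMIs was led by *Mfap4* and the stromal markers *Col1a2* and *Col1a1*. It was left without a name and is part of the 144 cells of that class given no EC type.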
